A study of Mus musculus with 3 samples.

Results

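The Hedgehog ligands *Shh*, *Ihh* and *Dhh*, the receptor *Ptch1*, the signal transducer *Smo*, the transcription factors *Gli1*, *Gli2* and *Gli3* and the ligand-binding antagonist *Hhip* were examined in the 3 germ layers of E7.5 mouse embryos. The genes were taken by symbol, and all 9 were found among the 17633 genes detected in at least 1 library. The pregnant females were of the ICR strain according to the paper, and the labels name no engineered allele or treatment. Endoderm, mesoderm and epiblast were separated by enzyme and hand dissection from the embryonic region, and the RNA of many pooled embryos entered 1 library per layer, so that the differences below have no replicate check. The epiblast sample holds the neuroectoderm together with the primitive streak.

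Hedgehog proteins are secreted signals. In their absence PTCH1 keeps SMO inactive and GLI3, and to a lesser extent GLI2, are processed to repressors. Binding of a ligand to PTCH1 frees SMO, full-length GLI2 and GLI3 then act as activators, and transcription of *Ptch1*, *Gli1* and *Hhip* rises in many responding tissues. In the gastrulating mouse, *Ihh* is known from the visceral endoderm and *Shh* from the node and the axial mesendoderm.

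The 3 ligands are paralogs, and their sequences show how far the reads of each can be told apart. The longest exact run common to the coding sequences of *Shh*, *Ihh* and *Dhh* was 11 bases, given in capitals below within a 30-base window of each gene (GENCODE M21, GRCm38, coding strand; *Shh* at chr5:28466611-28466640, *Ihh* at chr1:74951050-74951079 and *Dhh* at chr15:98898120-98898149, all on the minus strand and each within 1 exon).
Shh: cctttagccTACAAGCAGTTtattcccaac
Ihh: cctcttgccTACAAGCAGTTcagccccaac
Dhh: cctctgctaTACAAGCAGTTtgtgcccagt
Between any pair of ligands the longest exact run in the coding sequence was 16 or 17 bases, and 67.7% to 72.7% of the aligned bases were identical. *Gli2* and *Gli3* shared a run of 25 bases and *Gli1* and *Gli2* one of 23 bases.

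*Shh* lies on chromosome 5 from 28456815 to 28467256, *Ihh* on chromosome 1 from 74945315 to 74951672 and *Dhh* on chromosome 15 from 98891152 to 98898540. *Ptch1* lies on chromosome 13 (63508328 to 63573598), *Smo* on chromosome 6 (29735503 to 29761365), *Gli1* on chromosome 10 (127329882 to 127341974), *Gli2* on chromosome 1 (118834132 to 119053619), *Gli3* on chromosome 13 (15463235 to 15730026) and *Hhip* on chromosome 8 (79965851 to 80058006). Exons of *Dhh* share 546 bases with exons of *Rhebl1* on the same strand. *Rhebl1* had 676, 425 and 650 reads in endoderm, mesoderm and epiblast, and *Dhh* had 0 reads in endoderm. The length the authors list for *Dhh*, 2381 bases, is below the 4242 bases of its transcript. Whether the counted gene held the shared stretch is thus not known, and the few reads of *Dhh* remain uncertain. Exons of *Gli1* share 62 bases with those of *Arhgap9* on the opposite strand, which had 20, 24 and 22 reads. Exons of *Shh* share 446 bases with *9530036O11Rik* on the opposite strand, which had 16, 2 and 0 reads. The exons of *Ihh*, *Ptch1*, *Smo* and *Gli2* overlap those of no other gene. The length the authors list for *Ptch1*, 4305 bases, equals its coding length with the stop codon, whereas the other listed lengths of the 9 genes exceed the coding length. Ratios of *Ptch1* to other genes depend on that length, and comparisons of *Ptch1* between layers do not.

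Promoter sequences (RefSeq, GRCm38.p6, from 250 bases before to 50 bases after a start) were at hand for 7 of the 9 genes, *Ihh*, *Dhh*, *Ptch1*, *Smo*, *Gli2*, *Gli3* and *Hhip*. None of the 7 held the Gli consensus GACCACCCA on either strand, which 0.253% of 32851 promoters held, or the same letters with any base in the middle, GACCNCCCA, which 0.977% held. Among 32 of the 41 other pathway genes described below that have a promoter in the table, *Foxa2* alone held the second form, 66 bases before its start. It is shown on the strand of the gene, with the match, which reads on the other strand, in capitals (chr2:148045511-148045540, minus strand).
Foxa2: tggggaggggTGGGAGGTCggctggcgagg
These windows are short, and a gene without these letters there may hold them elsewhere.

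The libraries were of like depth, with 4.2e+07 reads counted on genes in endoderm, 4.1e+07 reads in mesoderm and 4.3e+07 reads in epiblast. The marker lists fitted the labels. All 7 visceral endoderm markers were highest in endoderm, with a summed RPKM of 5068, against 7.40 in mesoderm and 4.85 in epiblast, and so were all 4 definitive endoderm markers (484, 53.7 and 25.2). All 5 mesoderm markers were highest in mesoderm (summed RPKM 385, against 7.51 in endoderm and 82.4 in epiblast). Of the 5 epiblast markers 4 were highest in epiblast (893, against 61.4 in endoderm and 128 in mesoderm), and *Fgf5* was at 6.64 in endoderm and 6.32 in epiblast. Of 5 primitive blood markers 2 had no read, and the sums were 3.39, 4.44 and 0.905. Of 6 trophoblast and decidua markers 3 had no read, and the sums were 20.3, 6.48 and 1.41, of which *Plac1* made up 19.9, 6.25 and 0.569.

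In short, the ligands *Shh* and *Ihh* and the antagonist *Hhip* had their highest level in endoderm, *Ptch1*, *Smo*, *Gli1* and *Gli3* in mesoderm, and *Gli2* in epiblast. *Dhh* was near the limit of detection throughout. Differential expression was called with the criteria of the study's methods, which are an RPKM (reads per kilobase of gene length, scaled to the reads of the library) above 5 in at least 1 of a pair of libraries, a fold above 2, and an FDR below 0.001 by the Audic-Claverie exact test of read counts. That test compares libraries and not conditions, and folds are given with 95% Clopper-Pearson intervals that cover counting error only. A total of 6 of the 9 genes were called in at least 1 pair, against 16.3% of all genes. *Dhh* and *Hhip* did not reach an RPKM of 5 in any library and could not be called, and *Smo* fell just short of the fold. In bulk samples a lower level through fewer expressing cells and through less RNA per cell cannot be told apart.

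**Figure D1:**
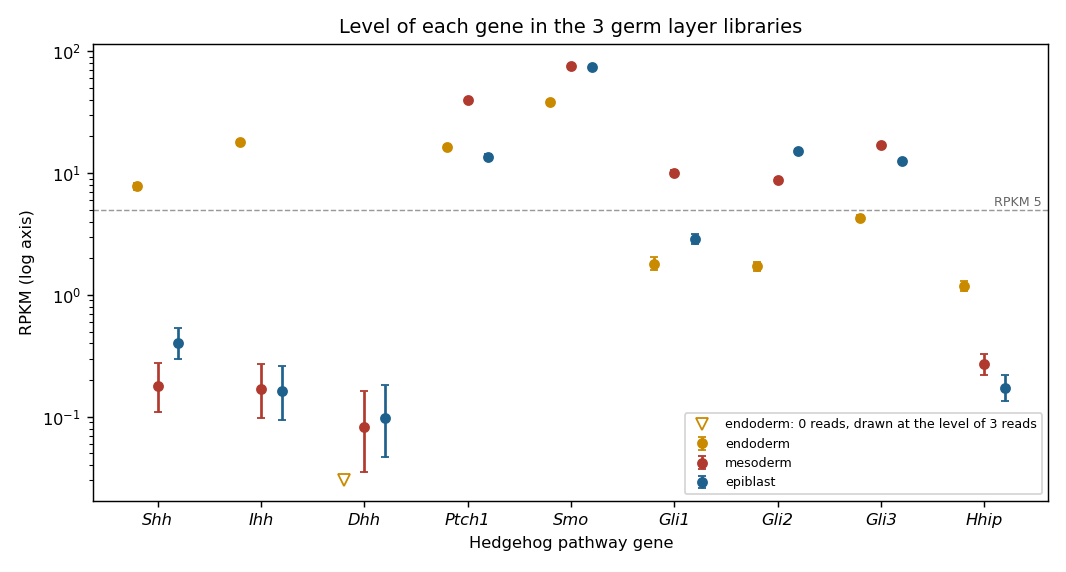
RPKM (log axis) of the 9 Hedgehog pathway genes in the endoderm, mesoderm and epiblast libraries, 1 point per library, with 95% Poisson intervals of the count. *Shh*, *Ihh* and *Hhip* are highest in endoderm, *Ptch1*, *Smo*, *Gli1* and *Gli3* in mesoderm, and the open triangle marks *Dhh* in endoderm, which had 0 reads and is drawn at the level of 3 reads.

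In endoderm *Ihh* had 1841 reads, but only 17 in mesoderm and 17 in epiblast, that is an RPKM of 17.9, 0.169 and 0.162. Its level was higher than that of 74.5% of the genes listed in endoderm and of 17.2% and 16.7% of those listed in the other layers. Endoderm was thus far above both other layers, which did not differ from each other beyond counting error (1.05-fold, interval 0.502 to 2.18). *Ihh* was 106-fold higher in endoderm than in mesoderm (interval 66.1 to 183) and 111-fold higher than in epiblast (69.2 to 191), and both pairs met the criteria.

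In endoderm *Shh* had 888 reads, against 20 in mesoderm and 47 in epiblast, and the RPKM was 7.82, 0.180 and 0.404. It was 43.5-fold higher in endoderm than in mesoderm (28.0 to 71.6) and 19.4-fold higher than in epiblast (14.4 to 26.6), and both pairs met the criteria. Between epiblast and mesoderm the difference was 2.25-fold (1.31 to 4.005), at levels below the RPKM criterion. The reads covered 89.2% of the length of *Shh* in endoderm, 36.1% in mesoderm and 68.2% in epiblast.

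*Dhh*, the ligand known from Sertoli and Schwann cells, was not listed in endoderm and had 8 reads in mesoderm and 10 in epiblast. In place of the 0, 3 reads were used, or an RPKM of 0.0302, while the 95% Poisson upper limit was 0.0372. Against 3 reads the fold of *Dhh* was 2.72 in mesoderm and 3.25 in epiblast, at an RPKM of 0.0823 and 0.0983. The lower 95% Clopper-Pearson limits of the folds over 0 reads were 1.74 and 2.19, and neither difference met the criteria. The 3 ligands together had 2729 reads in endoderm, against 45 in mesoderm and 74 in epiblast, and the summed ligand RPKM of mesoderm and epiblast was 1.67% and 2.58% of that of endoderm. Within endoderm the RPKM of *Ihh* was 2.29 times that of *Shh* (2.12 to 2.49), whereas in epiblast it was 0.4003 times (0.215 to 0.710). In mesoderm *Ihh* was at 0.941 times *Shh* (0.463 to 1.89), with no difference beyond counting error.

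The small share of *Ihh* and *Shh* outside endoderm is set beside that of endoderm and node markers. *Ihh* in mesoderm and epiblast was at 0.942% and 0.901% of its endoderm RPKM. The visceral endoderm markers had a median of 0.0532% and 0.0509%, and the definitive endoderm markers of 2.18% and 1.52%. Single definitive endoderm markers ran from 1.71% (*Trh*) to 34.4% (*Cer1*) in mesoderm and from 0.478% (*Cer1*) to 8.32% (*Trh*) in epiblast. *Shh* stood at 2.30% and 5.16%. Of the 7 node and axial mesendoderm markers 6 were highest in endoderm and *T* in epiblast, with a median of 5.59% in mesoderm and 25.3% in epiblast. The paper uses *Foxa2* as an endoderm marker, and SHH-producing cells of the node and floor plate express it too. It had an RPKM of 44.0, 1.39 and 2.58, that is 3.17% and 5.86%. *Noto*, a node gene, had 15.9, 0.886 and 2.56, and *Foxj1*, a regulator of motile cilia, 42.1, 2.25 and 10.6. *Chrd* and *Nog*, which encode BMP antagonists, had 13.4, 0.974 and 3.47, and 6.01, 2.53 and 1.46. *Nodal* had 4.73, 0.152 and 2.20. As a percent of endoderm, mesoderm and epiblast were at 5.59% and 16.1% for *Noto*, 5.35% and 25.3% for *Foxj1*, and 7.26% and 25.9% for *Chrd*. They were at 42.2% and 24.3% for *Nog*, and at 3.21% and 46.5% for *Nodal*. The part of node and endoderm cells in the ligand levels was not tested.

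In mesoderm *Ptch1* had 7004 reads, against 2942 in endoderm and 2512 in epiblast. In the order endoderm, mesoderm, epiblast, which is kept for all values below, its RPKM was 16.4, 39.8 and 13.7. Mesoderm stood above the other layers, which lay close together. The level in mesoderm was 2.43-fold that in endoderm (2.32 to 2.54) and 2.91-fold that in epiblast (2.78 to 3.05), and both pairs met the criteria. Endoderm exceeded epiblast by 1.20-fold (1.14 to 1.27), a difference larger than counting error but below the fold criterion. The reads covered 98.4% to 99.1% of the listed length in each library.

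*Gli1*, which acts as an activator and is itself a transcriptional target of the pathway, had 275, 1503 and 449 reads, or an RPKM of 1.80, 10.05 and 2.87. As with *Ptch1*, mesoderm was the highest layer, but the gap was wider. *Gli1* was 5.57-fold higher in mesoderm than in endoderm (4.90 to 6.36) and 3.50-fold higher than in epiblast (3.15 to 3.90), and both pairs met the criteria. Epiblast was 1.59-fold above endoderm (1.37 to 1.86), with neither library at an RPKM of 5. *Ptch1* and *Gli1* therefore ordered epiblast and endoderm in opposite ways, and the RPKM of *Ptch1* was 9.10 times that of *Gli1* in endoderm (8.04 to 10.3), 3.96 times in mesoderm (3.75 to 4.19) and 4.76 times in epiblast (4.30 to 5.27).

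*Hhip*, which encodes a membrane protein that binds and sequesters the ligands, had 451, 101 and 67 reads, with an RPKM of 1.19, 0.272 and 0.173. It was 4.38-fold higher in endoderm than in mesoderm (3.52 to 5.49) and 6.90-fold higher than in epiblast (5.33 to 9.06). Both folds exceed the criterion, but no library reached an RPKM of 5 and *Hhip* was not called. Its direction was opposite to that of *Ptch1* and *Gli1* between endoderm and mesoderm. The RPKM of *Ptch1* was 13.8 times that of *Hhip* in endoderm (12.5 to 15.2), 146 times in mesoderm (120 to 180) and 79.2 times in epiblast (62.1 to 103).

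*Smo* was the most abundant of the 9 genes per length in endoderm, mesoderm and epiblast, with 6388, 12360 and 12533 reads and an RPKM of 38.6, 76.1 and 73.8. It was 1.97-fold higher in mesoderm (1.91 to 2.03) and 1.91-fold higher in epiblast (1.86 to 1.97) than in endoderm. Neither difference reached the fold of 2, and both did when the libraries were scaled to the same upper quartile (log2 of endoderm over mesoderm -1.05, and over epiblast -1.07). Mesoderm and epiblast were within 1.03-fold (1.01 to 1.06), and their order turned round with that scaling. The RPKM of *Smo* was 2.35 times that of *Ptch1* in endoderm (2.25 to 2.46), 1.91 times in mesoderm (1.85 to 1.97) and 5.40 times in epiblast (5.17 to 5.64), where *Smo* was near its highest and *Ptch1* at its lowest level.

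*Gli2*, the main activator in mouse, had 479, 2395 and 4365 reads, and an RPKM of 1.71, 8.74 and 15.2. It was lowest in endoderm and highest in epiblast. The level in mesoderm was 5.10-fold (4.62 to 5.64) and that in epiblast 8.89-fold (8.09 to 9.79) that of endoderm, and both pairs met the criteria. Epiblast was 1.74-fold above mesoderm (1.66 to 1.83) and was not called against it.

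*Gli3*, the main repressor, had 1505, 5803 and 4488 reads, and an RPKM of 4.29, 16.9 and 12.5. Both other layers were above endoderm, mesoderm by 3.93-fold (3.71 to 4.16) and epiblast by 2.91-fold (2.74 to 3.09), and both pairs met the criteria. Mesoderm was 1.35-fold above epiblast (1.30 to 1.41), which did not.

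**Figure D2:**
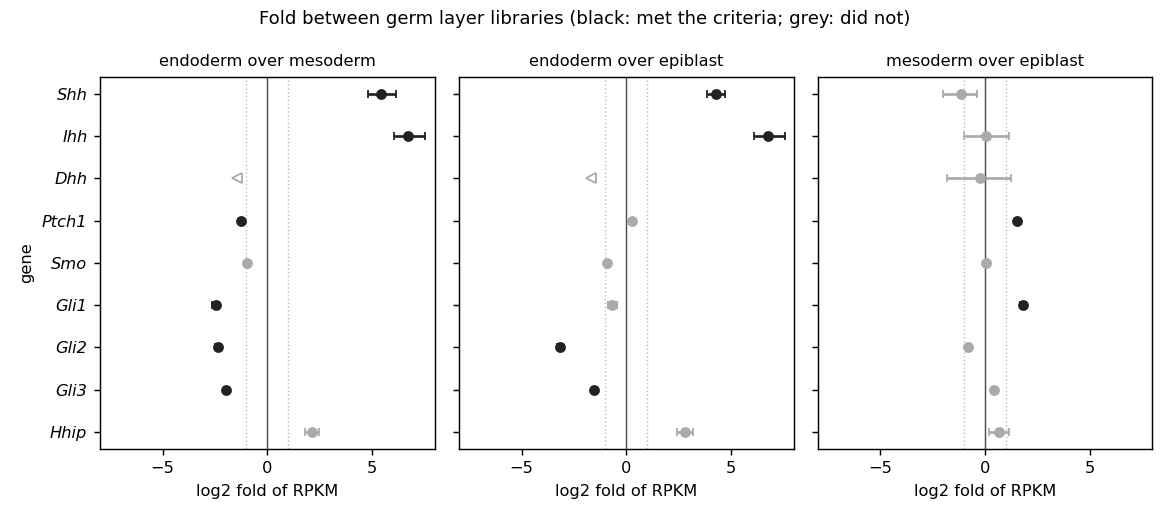
Log2 fold of RPKM of each gene between the endoderm and mesoderm, endoderm and epiblast, and mesoderm and epiblast libraries, with 95% Clopper-Pearson intervals (counting error only). Black points met the criteria, grey points did not, dotted lines mark a fold of 2 and triangles mark *Dhh* against 0 reads in endoderm. *Shh*, *Ihh* and *Hhip* lie on the endoderm side and the 3 *Gli* genes on the other side in both comparisons with endoderm.

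The make-up of the Gli factors differed between layers. Their RPKM summed to 7.80, 35.6 and 30.6. *Gli1* made up 23.1%, 28.2% and 9.39% of that sum, *Gli2* 22.0%, 24.5% and 49.8%, and *Gli3* 54.9%, 47.3% and 40.8%. *Gli3* thus exceeded *Gli2* by 2.501 times in endoderm (2.25 to 2.78) and 1.93 times in mesoderm (1.84 to 2.02), but stood at 0.818 times *Gli2* in epiblast (0.785 to 0.853). *Gli2* was at 0.951 times *Gli1* in endoderm (0.818 to 1.11), at 0.870 times in mesoderm (0.815 to 0.928) and at 5.31 times in epiblast (4.81 to 5.86).

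**Figure D3:**
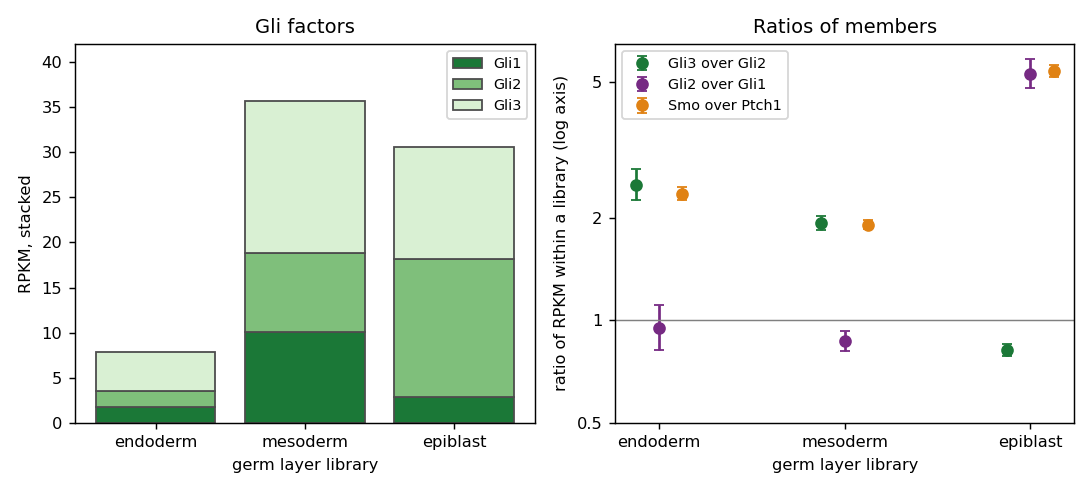
Left, RPKM of *Gli1*, *Gli2* and *Gli3* stacked for each germ layer library, with sums of 7.80 (endoderm), 35.6 (mesoderm) and 30.6 (epiblast). Right, ratios of RPKM within a library (log axis) with 95% Clopper-Pearson intervals; *Gli2* over *Gli1* and *Smo* over *Ptch1* are highest in epiblast, where *Gli3* over *Gli2* falls below 1.

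Between endoderm and mesoderm, 2 of the 9 genes (*Ihh* and *Shh*) were called as higher in endoderm, against 7.44% of 17194 genes, and 4 (*Ptch1*, *Gli1*, *Gli2* and *Gli3*) as higher in mesoderm, against 4.41%. Between endoderm and epiblast, *Ihh* and *Shh* were called as higher in endoderm, against 8.02% of 17267 genes, and *Gli2* and *Gli3* as higher in epiblast, against 4.58%. Between mesoderm and epiblast, *Ptch1* and *Gli1* were called as higher in mesoderm, against 2.58% of 17100 genes, and none of the 9 as higher in epiblast, against 2.45%. The median log2 ratio of the 9 genes was -1.28 for endoderm over mesoderm, -0.67 for endoderm over epiblast and 0.064 for mesoderm over epiblast, beside -0.030, -0.023 and 0.040 over all genes with a read in either library.

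A list of 41 other pathway genes was examined in the same way, and 12 of them were called in at least 1 pair, against 16.3% of all genes. All 41 had reads, 2 of them under older symbols (*Grk2* as *Adrbk1* and *Foxf1* as *Foxf1a*). Between endoderm and mesoderm 4 were called as higher in endoderm (7.44% of all genes) and 7 in mesoderm (4.41%), between endoderm and epiblast 3 in endoderm (8.02%) and 2 in epiblast (4.58%; 3 and 5 genes with the libraries scaled to the same upper quartile), and between mesoderm and epiblast 5 in mesoderm (2.58%) and 1 in epiblast (2.45%).

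Co-receptors and other ligand-binding proteins of the membrane made up 5 genes, and 4 were called in at least 1 pair, against 16.3% of all genes. *Boc* and *Gas1*, which encode co-receptors that aid ligand reception, were lowest in endoderm, like the *Gli* genes. *Boc* had an RPKM of 0.374, 5.79 and 1.93, and was 15.5-fold higher in mesoderm than in endoderm (12.1 to 20.04) and 2.999-fold higher than in epiblast (2.66 to 3.39). *Gas1* had an RPKM of 1.70, 20.1 and 13.8, and exceeded endoderm by 11.8-fold in mesoderm (10.3 to 13.6) and by 8.11-fold in epiblast (7.06 to 9.36). *Cdon*, the paralog of *Boc*, differed little, with an RPKM of 5.71, 8.53 and 6.41.

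*Gpc3* and *Lrp2* were highest in endoderm, where *Boc* and *Gas1* were lowest, and were called in all 3 pairs. *Gpc3*, which encodes a glypican that competes with PTCH1 for ligand, had an RPKM of 764, 255 and 80.04, and was 3.19-fold higher in mesoderm than in epiblast (3.11 to 3.28). *Lrp2* encodes megalin, an endocytic receptor of absorptive epithelia that binds SHH among many other ligands. Its RPKM was 41.7, 2.55 and 9.26, and it was 16.3-fold higher in endoderm than in mesoderm (15.5 to 17.2) and 3.63-fold higher in epiblast than in mesoderm (3.44 to 3.84). The visceral endoderm markers given above were also highest in endoderm, and their part in these values was not tested.

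None of the 5 genes for ligand processing and release was called. *Disp1*, needed for release of lipid-modified ligand, had an RPKM of 5.19, 6.88 and 4.39. *Hhat*, the acyltransferase that adds palmitate to the ligands, was below 5, with 1.46, 0.613 and 0.256, and was 2.39-fold (1.80 to 3.20) and 5.72-fold (3.89 to 8.68) higher in endoderm. *Scube1* and *Scube3*, for secreted proteins of the release step, were lower in endoderm, at an RPKM of 0.120, 1.18 and 0.688, and of 0.411, 1.95 and 1.42. *Scube2*, of the same family and named after its values were seen, had 68, 15 and 8 reads, and was 4.45-fold (2.52 to 8.37) and 8.71-fold (4.18 to 21.0) higher in endoderm, below an RPKM of 5.

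Of the 15 genes for transduction and control of the Gli proteins 4 were called, each in 1 pair, against 16.3% of all genes called in at least 1 pair. *Evc* and *Evc2*, for partner proteins of SMO in the cilium, were lowest in endoderm, with an RPKM of 1.45, 4.73 and 6.92, and of 3.59, 8.44 and 6.81. *Rab23*, for a small GTPase that restrains the pathway, had 5.44, 12.1 and 10.2, and *Stk36*, for the Fused kinase, went the other way with 5.26, 2.26 and 2.64. With a pseudocount of 1, *Stk36* fell below the fold of 2 between endoderm and mesoderm (log2 0.940) and was not called. The kinase genes *Prkaca* (67.4, 46.4 and 45.8), *Csnk1a1* (82.2, 113 and 114) and *Grk2* (24.2, 26.3 and 31.1), and *Spop* (13.9, 21.6 and 27.0), for a ubiquitin ligase adaptor, were not called. Chosen after the values were seen, *Sufu*, for the main inhibitor of the Gli proteins, had an RPKM of 17.8, 23.1 and 23.8, and *Kif7*, for the ciliary kinesin, 3.54, 5.98 and 4.71. The median of the largest fold between any pair of layers was 1.69 over the 15 genes.

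The primary cilium, in which the pathway signals in vertebrates, was represented by 7 transport genes. None was called, and the largest fold between any pair of layers was 1.74. *Ift52* had an RPKM of 12.6, 16.2 and 11.9, *Kif3a* 6.98, 9.78 and 5.61, *Ift122* 6.71, 7.57 and 9.51, and *Ift88* 8.74, 6.99 and 7.46. The cilium genes thus differed less between the layers than *Smo*, *Gli1*, *Gli2* or *Gli3* did.

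Of 9 genes known to respond to Hedgehog signals in some tissue 4 were called in at least 1 pair, against 16.3% of all genes. *Foxf1*, a target in mesoderm that faces endoderm, had an RPKM of 0.362, 33.2 and 1.72, and was 91.8-fold higher in mesoderm than in endoderm (56.3 to 161) and 19.3-fold higher than in epiblast (15.4 to 24.6). *Foxc1* (1.60, 19.5 and 1.91) and *Foxc2* (1.74, 55.5 and 1.76) were likewise called in mesoderm against both layers. *Foxf2* (0.264, 2.11 and 0.228) and *Foxl1* (0.187, 0.761 and 0.0316) were highest in mesoderm below an RPKM of 5. These forkhead genes shared with *Ptch1* and *Gli1* a maximum in mesoderm, and *Foxc1* and *Foxc2* were in epiblast at 1.19-fold and 1.01-fold the level of endoderm, with neither library at an RPKM of 5. Mesoderm markers such as *Kdr* (0.272, 40.8 and 0.771) and *Hand1* (0.999, 222 and 33.2) were highest in mesoderm too, and their part in the values of the forkhead genes was not tested. *Foxa2*, a floor plate gene and an endoderm marker in the paper, was highest in endoderm, as given above. *Nkx2-2* (33, 15 and 0 reads) and *Nkx6-1* (2, 14 and 53 reads), of the ventral neural tube, were below an RPKM of 1.

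**Figure D4:**
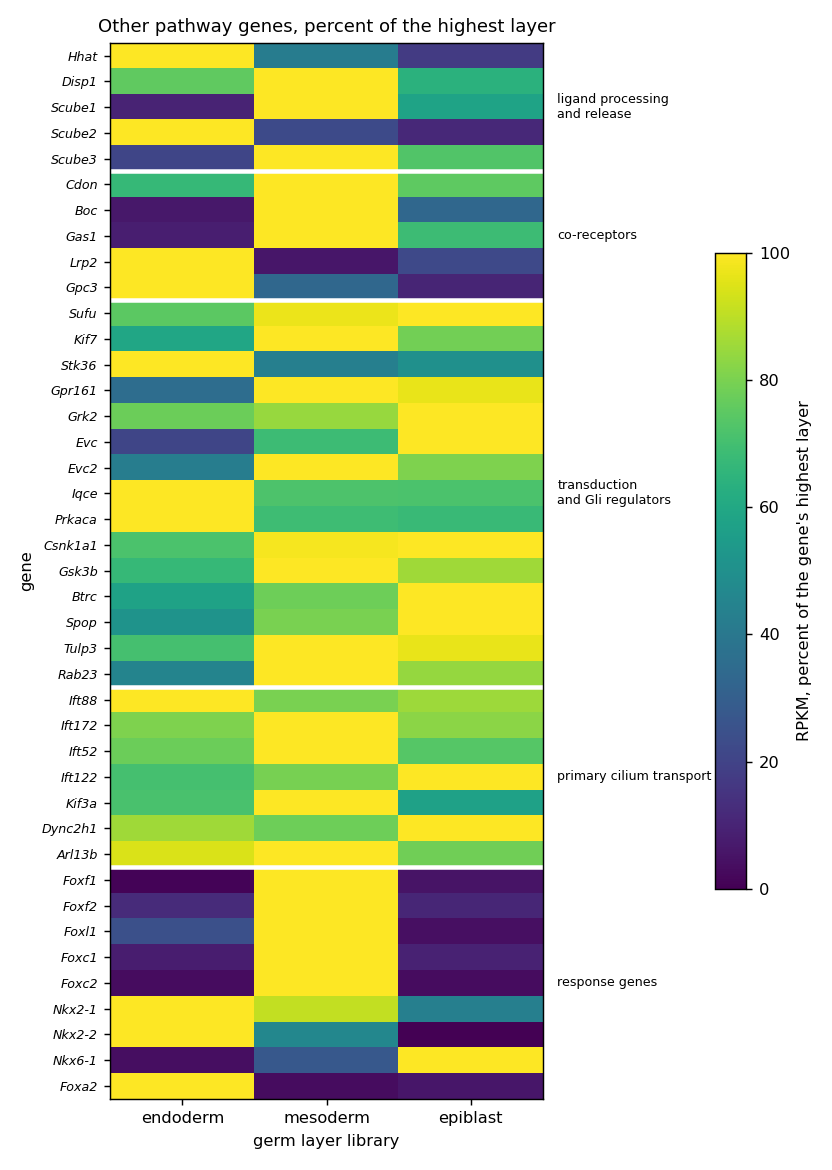
RPKM of 41 other Hedgehog pathway genes in the 3 libraries, as a percent of each gene's highest layer, grouped by list. The *Fox* genes of the response list are highest in mesoderm except *Foxa2*, the 7 cilium genes vary little, and *Gpc3* and *Lrp2* are highest in endoderm; *Nkx2-1*, *Nkx2-2* and *Nkx6-1* rest on few reads.

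For each of the 8 genes with an RPKM of at least 1 in any library, the genes of most similar pattern were sought by the distance between the shares of the 3 libraries in the summed RPKM, over 13071 genes with at least 100 reads over the 3 libraries. With 3 libraries many genes come close, so the names describe the pattern only. *Ihh*, with 98.2% of its summed RPKM in endoderm, was nearest to *Nrk* (98.1%) and *Slc13a4* (98.4%), and *Shh* (93.1%) to *Pcbd1* and *Fam20c* (both 93.0%). *Hhip* (72.8%) was nearest to *Nid2* (72.5%) and *Frs3* (72.2%). *Gli3*, with 50.1% in mesoderm and 37.1% in epiblast, was near *Ccnd1* (49.5% and 37.6%) and *Vav3* (49.6% and 37.8%), and *Gli2*, with 59.3% in epiblast, near *Rspo1* (59.3%) and *Nr1h5* (58.6%). *Smo* (40.4% in mesoderm) was nearest to *Mterf* (40.4%) and *Rprd1a* (40.1%), and *Ptch1* (57.0%) to *Itga10* (57.1%) and *Plk2* (57.4%). *Gli1*, with 68.3% in mesoderm, was farther from its nearest genes, *Rgs4* (66.8%) and *Zc3h12b* (68.9%), at a distance of 0.0177 and 0.0195, against at most 0.00932 for the others.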

How the data were processed

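The authors sequenced paired-end libraries and, per the file headers, deposited for each gene its length, a count of unique reads, the percent of the length that reads covered, and the RPKM. RPKM was recomputed from the deposited counts, lengths and totals with a largest relative difference of 2.03e-07. The submitters' processing notes name TopHat, mm10 and mm9. The program that made the gene counts is not given in the sources used here, nor is whether it used strand. A gene not listed was taken to have 0 reads, and a fold against 0 reads was computed against 3 reads. The FDR is the p of the Audic-Claverie exact test (two-sided), adjusted by Benjamini-Hochberg over all genes detected in the pair. With 1 library per layer the quasi-likelihood test of edgeR could not be fitted, and its exact test, with the biological coefficient of variation set to 0.4 by assumption, was an alternative, beside other RPKM and fold minimums, a pseudocount and 3 other scalings. Calls were tested on simulated data, which cannot stand in for the missing replicates of a layer. Named were the 9 genes, every called gene of the pathway lists and up to 4 others per list by highest RPKM, and 2 genes of most similar pattern for each of the 9 with an RPKM of at least 1. 1 further pathway gene was not analysed here. The members and lists were chosen with earlier results of these data known. Positions came from GENCODE M21. Python 3.11.15, pandas 2.3.3, SciPy 1.17.1, Biopython 1.88, R 4.3.3 and edgeR 4.0.16 were used.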

Additional observations from a re-analysis of the deposited data

How the results depend on the processing

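Only counting error could be estimated, because each layer had 1 library, and no library could be left out. No paired analysis was possible because no layer had a second library. When the biological coefficient of variation was set to 0.4 in the exact test of edgeR, 2 of the 9 genes (*Shh* and *Ihh*) were called in endoderm against mesoderm, the same 2 against epiblast, and 0 in mesoderm against epiblast. With Fold Change>4, 0 were called between mesoderm and epiblast. For the 41 other pathway genes, the exact test of edgeR called 5, 1 and 1 in the 3 pairs in that order. RPKM>1 called 17 between endoderm and mesoderm and 10 between endoderm and epiblast, no RPKM minimum called 19, 15 and 11 in the 3 pairs, and Fold Change>4 called 7 between endoderm and mesoderm and 3 between mesoderm and epiblast. The other 45 recomputed counts were within 1.5 times. The median of ratios raised the median log2 ratio of all genes for endoderm over mesoderm by 0.11 and TMM did likewise, and the same upper quartile lowered that for endoderm over epiblast by 0.13. Under the same upper quartile the log2 ratio of mesoderm over epiblast became -0.0015 for *Ihh* and -0.022 for *Smo*, the only reversals among the 9 genes in the alternatives run, and *Smo* was called in both comparisons with endoderm, as were 8 of the other pathway genes between endoderm and epiblast. *Hhip* was called against mesoderm and epiblast with RPKM>1 or no minimum. *Shh* in both its pairs, and *Gli2* between endoderm and mesoderm, were not called with RPKM>10, and *Ptch1* and *Gli3* in any pair, and *Gli1* between mesoderm and epiblast, were not called with Fold Change>4. *Dhh* against endoderm, where it had 0 reads, was given as a fold against 3 reads with a lower limit, and was not recomputed.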
